A study of Mus musculus with 4 samples.

Results

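Long intergenic noncoding RNAs (lincRNAs) are spliced or single-exon transcripts that lie between protein-coding genes and encode no known protein. The set described here was chosen by annotation and level: every gene given the biotype lincRNA whose mean over the 4 libraries was at least 1 FPKM (fragments scaled by gene length and by library total). Of the 5082 lincRNA genes in the table, 100 (1.97%) met both conditions. Another 4055 were listed at 0 in every library and 927 lay between 0 and 1 FPKM. RNA of mouse Th17 cells, interleukin 17-secreting helper T cells made here in culture, was sequenced as 2 libraries of genotype PP2A WT and 2 of genotype PP2A cKO, all of strain C57BL/6. Naive cells of both genotypes were primed for 2 days beside irradiated autologous antigen presenting cells, with soluble antibodies to CD3 and CD28 at 2 µg/ml, 2 ng/ml of TGFβ1, 20 ng/ml of IL-6, and blocking antibodies to IL-4 and IFNγ at 10 µg/ml. They were then restimulated for 4 h with 50 ng/ml of PMA and 500 ng/ml of ionomycin. The study asks whether Th17 differentiation needs PP2A, a serine/threonine phosphatase built from catalytic, scaffold and regulatory subunits; the labels do not name the targeted subunit, the Cre driver, the age or sex of the mice, or how the replicates were separated, so the p-values rest on library-to-library spread, which may be technical.

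lincRNAs act in several ways. Some are little more than precursors: microRNA host genes are cut by Drosha and Dicer into short RNAs whose seed (bases 2 to 8) pairs with target mRNAs, and small nucleolar RNA (snoRNA) host genes carry in their introns the guides that direct modification of ribosomal RNA. Others work as the long transcript, as do Neat1, the scaffold of nuclear paraspeckles, and Malat1, an abundant RNA of nuclear speckles. In T cells the best known are the hosts of miR-155, which is induced on activation and favours Th17 responses, of the miR-17 to miR-92 cluster, which promotes lymphocyte proliferation, and of miR-142, a microRNA of blood cells.

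Mature microRNAs of the 3 microRNA host genes in the set are shown, though not every arm is printed. For these hosts the total of the host transcript was measured and not the mature forms. The separate microRNA genes Mir155, Mir17 and Mir142 were listed at 0 in every library. Seeds are in capitals, and sequences are from RefSeq (GRCm38.p6). In the Mir17hg cluster, miR-17-5p and miR-20a-5p share one seed, and miR-19a-3p and miR-19b-3p share another, so that 6 of the printed arms from this host carry 4 different seeds.
mmu-miR-155-5p: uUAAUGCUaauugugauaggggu
mmu-miR-142a-5p: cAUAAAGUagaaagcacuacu
mmu-miR-142a-3p: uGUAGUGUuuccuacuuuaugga
mmu-miR-17-5p: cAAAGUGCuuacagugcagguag
mmu-miR-20a-5p: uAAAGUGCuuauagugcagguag
mmu-miR-18a-5p: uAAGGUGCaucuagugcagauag
mmu-miR-19a-3p: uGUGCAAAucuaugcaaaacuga
mmu-miR-19b-3p: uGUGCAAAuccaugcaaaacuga
mmu-miR-92a-3p: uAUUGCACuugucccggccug

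The first 150 bases of the longest GENCODE M21 transcript follow for Gm5907 and AC170597.2, since these 2 genes are the members that passed the test below and neither has a descriptive name. Gm5907 spans chr8:13986090-14003561 on the plus strand (GRCm38) and its transcript has 661 bases. Capitals mark a 14-base stretch that occurs 5 times near its start, always in the same orientation. AC170597.2 spans chr13:44537309-44568668 on the minus strand, its transcript has 439 bases, and no 14-base stretch recurs in the part shown.
Gm5907: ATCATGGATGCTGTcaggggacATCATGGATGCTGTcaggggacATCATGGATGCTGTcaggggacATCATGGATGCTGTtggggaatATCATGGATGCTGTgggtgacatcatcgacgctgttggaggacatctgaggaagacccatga
AC170597.2: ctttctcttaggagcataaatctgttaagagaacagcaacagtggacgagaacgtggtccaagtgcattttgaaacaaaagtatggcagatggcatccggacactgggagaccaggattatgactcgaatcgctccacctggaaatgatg

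The libraries held 18517487 to 20387948 gene-assigned reads, of which 0.147% to 0.159% fell on the 100 lincRNAs. All 8 markers of CD4 T cells and Th17 cells, such as Cd4 and Il17a, were at or above 1 FPKM. Of 8 markers of myeloid antigen presenting cells only Cd68 reached 1 FPKM, with a summed level of 1.34 to 2.26 FPKM per library and Clec9a listed at 0 throughout. Of 6 B cell markers only Ighm did, and the sum over the list was 7.65 and 8.75 FPKM in WT against 4.60 and 5.04 FPKM in cKO, with Ms4a1 at 0 in 3 libraries. The 2 CD8 T cell markers, of which Cd8b1 reached 1 FPKM and Cd8a did not, summed to 7.61 and 8.24 FPKM in WT against 9.28 and 10.2 FPKM in cKO. The part of such cells in the results was not tested, and in bulk RNA fewer cells of a type and less RNA per cell cannot be told apart. The 2 cKO libraries differed more from each other than the WT libraries did (a chi-square over genes, divided by its degrees of freedom, of 30.6 against 4.98). Ppp2ca, the main PP2A catalytic gene, had 42.2 and 50.1 FPKM in WT and 41.8 and 34.5 FPKM in cKO (limma, adjusted p = 0.36), so gene totals did not check the genotype labels.

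Most members were low. The median of their mean levels was 2.36 FPKM, against 9.76 FPKM for tested protein-coding genes. Only 17 members reached 10 FPKM, 41 lay between 2 and 10, and 42 lay under 2. Just inside the limit were AC131762.1 (mean 1.01 FPKM), 4833445I07Rik (1.03 FPKM) and Gm16001 (1.04 FPKM), and just outside it AC133083.3 (0.986 FPKM), AC122326.1 (0.965 FPKM) and Gm30292 (0.95 FPKM). Members were shorter than coding genes, with a median length of 1634 bases (137 to 20771) against 4257, and 14 had a single exon. Their median GC content was 47.5%, against 49.6% over all tested genes. A clone or numbered name was carried by 84 of the 100. The body of another gene overlapped 52 members, and at least 33 shared exonic bases with one. Exons were compared only for the 91 members with the same position in GENCODE M21. Where the strand setting is not known, reads of such overlapping pairs cannot be assigned with certainty. Despite the biotype, 25 members held an open reading frame of at least 100 codons in the longest transcript.

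The 10 members with the highest mean FPKM took 46.4% to 52.3% of the lincRNA reads in each library. In order of mean level they were Gm26917, 2900097C17Rik, Epb41l4aos, Snhg6, Mir142hg, Snhg12, Mir155hg, Gm28901, Gm42047 and AI504432. Among the 38 members with fewer than 50 reads per library on average, the median difference in log2 FPKM was 0.29 for the WT pair and 0.32 for the cKO pair. It was 0.14 and 0.11 among the 35 members with 50 to 200 reads, and 0.08 and 0.22 among the 27 with at least 200. The WT pair thus drew closer with depth and the cKO pair did not do so throughout.

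**Figure D1:**
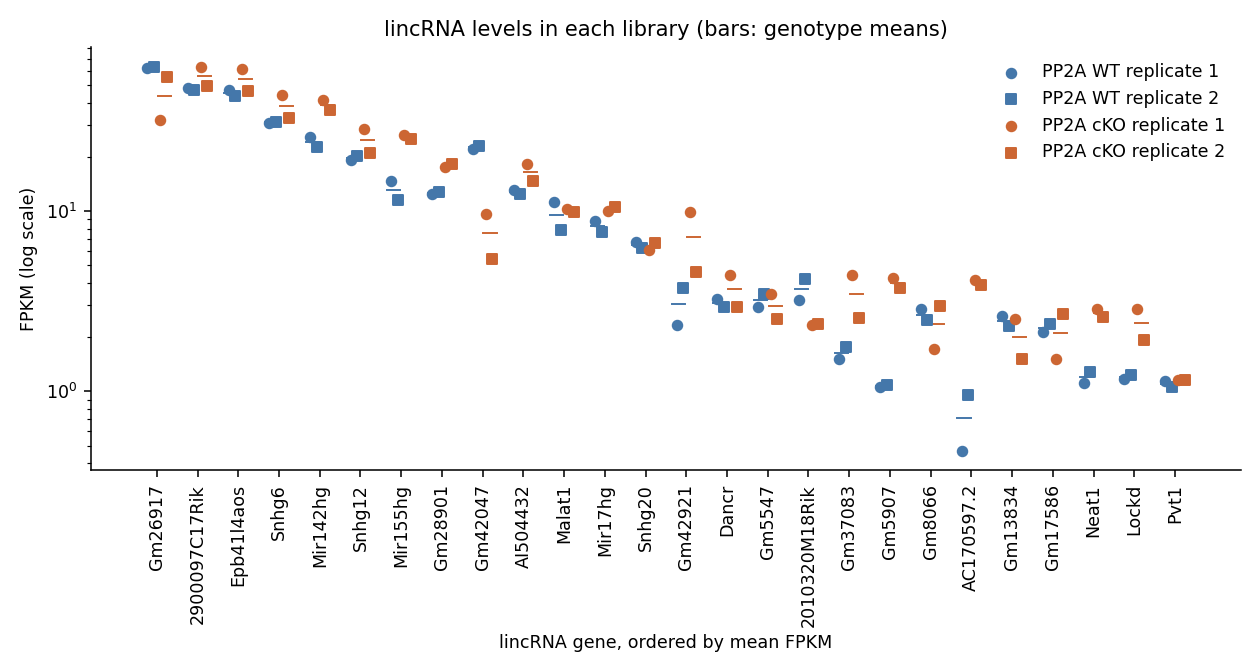
FPKM (y axis, log scale) of the 26 lincRNAs described by name (x axis, in order of mean level) in the 4 libraries, with bars at the genotype means. Both cKO libraries lie above both WT libraries for Mir142hg, Mir155hg, Gm5907, AC170597.2 and Neat1, and below them for Gm42047.

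In the comparison of cKO with WT, 2 of the 100 lincRNAs rose and none fell (limma on log2(FPKM + 1), Benjamini-Hochberg adjusted over 10562 genes). Over all tested genes, 0.814% were called higher and 0.256% lower. At an unadjusted p under 0.05, 24 members were higher and 3 lower in this limma fit, against 9.56% and 10.3% of all tested genes. A wider shift showed without any threshold. The median log2 fold change of the members was 0.15 (quartiles -0.02 and 0.33), while that of all tested genes was -0.0034. A fold change above 0 was found for 74 of the 100 members and for 49.4% of tested genes. Both cKO libraries lay above both WT libraries in 50 members and below them in 11, against 27.2% and 28.7% of tested genes. These counts describe the set and support nothing by themselves, because the level limit used the same libraries: 13 members had a WT mean under 1 FPKM and entered through their cKO values, and 4 entered through their WT values. Among the 83 members with both means at 1 FPKM or more, 40 (48.2%) lay above WT in both cKO libraries and 9 lay below, with a median log2 fold change of 0.13.

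In the median, both cKO libraries carried the shift, whereas the share of reads on the lincRNAs did not rise in both. That share was 0.149% in each WT library, 0.159% in cKO replicate 1 and 0.147% in cKO replicate 2. The members' median difference from the WT mean was 0.17 in cKO replicate 1 and 0.17 in cKO replicate 2. The highest of the 4 values was found in cKO replicate 1 for 44 members, in cKO replicate 2 for 34, in WT replicate 1 for 10 and in WT replicate 2 for 12. Over all tested genes these shares were 34.4%, 22.0%, 21.7% and 21.9%. A change above 1.5-fold on the log2(FPKM + 1) scale was reached upward by 14 members and downward by 1, against 3.63% and 2.38% of tested genes. Other RNA classes are given for scale. Among 84 antisense RNAs, 40.5% lay above WT in both cKO libraries and 14.3% below. Among 94 snoRNA genes the shares were 36.2% and 6.38%. Among 58 microRNA genes they were 22.4% and 13.8%, and among 21 snRNA genes 19.05% and 14.3%. Among 9231 protein-coding genes they were 26.6% and 31.1%. Among 54 processed transcripts the shares were 37.0% and 13.0%, and among 68 T cell receptor V genes 33.8% and 7.35%. Median log2 fold changes were 0.26 for snoRNA, 0.13 for antisense, 0.13 for snRNA and 0.08 for microRNA genes. That of protein-coding genes was -0.01. A median above 0 was thus not particular to the lincRNAs. These differences between classes were not tested.

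**Figure D2:**
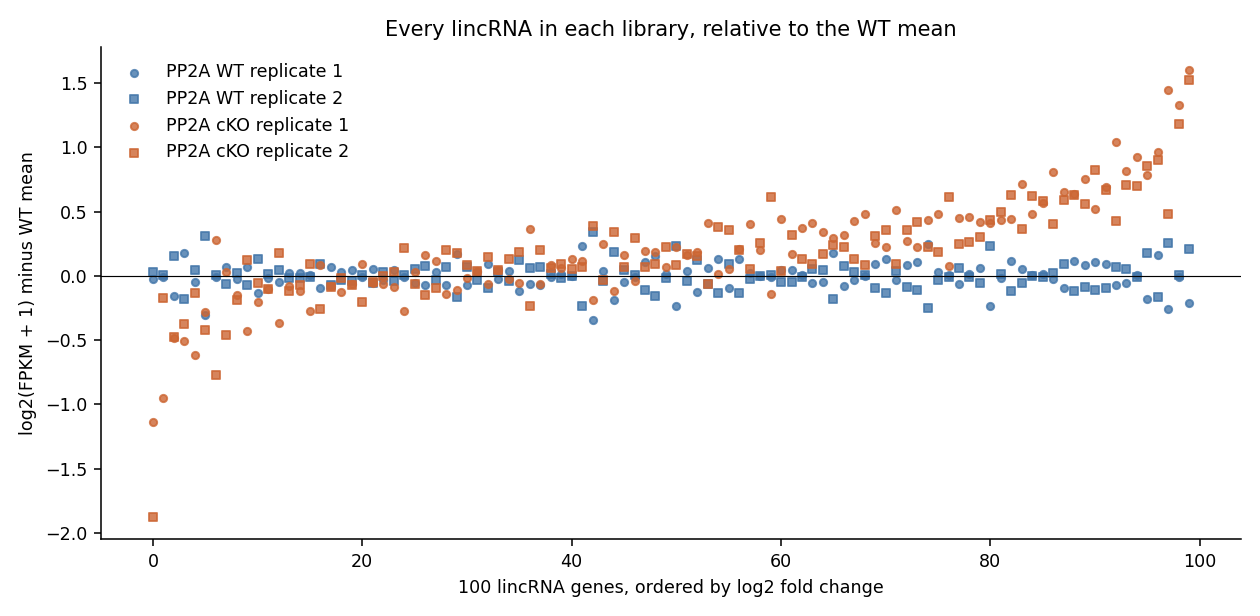
Difference of log2(FPKM + 1) from the WT mean (y axis) for each of the 100 lincRNAs (x axis, in order of log2 fold change) in each library. For the upper part of the order the points of both cKO libraries separate from the WT points, and 1 gene at the lower end, Gm42047, stands far below the rest.

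Gm5907 and AC170597.2 were the 2 members that rose. Gm5907 had 1.06 and 1.09 FPKM in WT and 4.23 and 3.72 FPKM in cKO, from 15, 15, 62 and 52 reads. The WT libraries were nearly equal, but with only 15 reads in each their closeness does not measure precision. Both cKO libraries were well above them. Its mean was 1.08 ± 0.0182 FPKM in WT and 3.98 ± 0.363 FPKM in cKO (SD, n = 2), a ratio of 3.69, and its log2 fold change was 1.26 ± 0.11 (SE; limma, adjusted p = 0.027). The repeats printed above belong to this transcript, which has 4 exon blocks and whose longest open reading frame has 127 codons. AC170597.2 had 0.466 and 0.954 FPKM in WT and 4.15 and 3.88 FPKM in cKO, from 4, 8, 37 and 33 reads. The groups did not overlap, but the WT values rest on few reads and their mean, 0.71 FPKM, was under the level limit. Its log2 fold change was 1.57 ± 0.17 (SE; limma, adjusted p = 0.0356), and it missed the threshold without cKO replicate 1 (limma, adjusted p = 0.0572).

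The coding gene nearest to each of them also had higher values in both cKO libraries, as did 27.2% of all tested genes. Over the 72 members whose nearest coding gene was tested, 56.9% of pairs had fold changes of the same sign. A link between these genes was not tested. Tdrp, 11058 bases from Gm5907 on the other strand, had 0.827 and 0.68 FPKM in WT and 2.38 and 2.01 FPKM in cKO, a log2 fold change of 0.86 ± 0.13 (SE; limma, adjusted p = 0.0554). Jarid2, an accessory subunit of Polycomb repressive complex 2, lies 160806 bases from AC170597.2 on the other strand. It had 9.01 and 7.56 FPKM in WT and 13.1 and 13.5 FPKM in cKO, a log2 fold change of 0.63 ± 0.11 (SE; limma, adjusted p = 0.0696). The groups did not overlap for either gene, and neither passed the threshold.

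**Figure D3:**
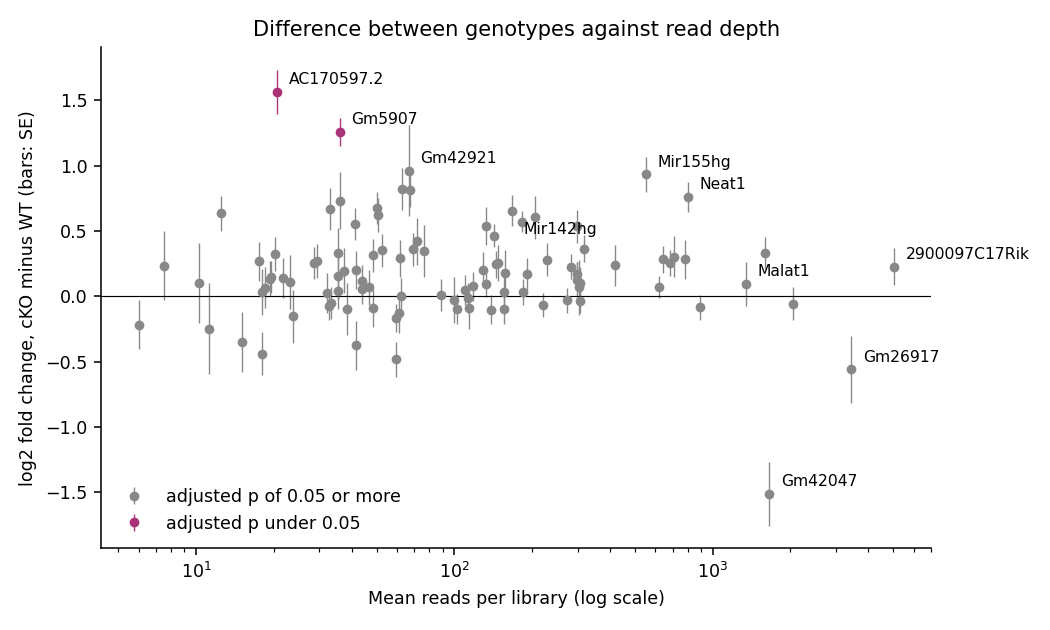
Log2 fold change of cKO minus WT (y axis, bars are the SE) against the mean reads per library (x axis, log scale) of the 100 lincRNAs, with those past the adjusted p of 0.05 in colour. The 2 called genes, Gm5907 and AC170597.2, lie among the members with under 50 mean reads, while Mir155hg, Neat1 and Gm42047 have more than 200 and miss the threshold.

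Of the microRNA hosts, 21 were listed, 16 were in the table and 3 were members. All 3 had cKO values above WT values in both libraries, as did 27.2% of all tested genes, and none passed the limma test as set out above. Mir155hg, the host of miR-155, had 14.7 and 11.5 FPKM in WT and 26.4 and 25.2 FPKM in cKO. The cKO libraries were close together and both well above the WT libraries, with a ratio of means of 1.97. Its log2 fold change was 0.93 ± 0.13 (SE; limma, adjusted p = 0.0541). limma did call Mir155hg with a filter of 5 FPKM (adjusted p = 0.0491). It also did with a replicate block (0.0297), a GC correction (0.039) and both of these (0.0467). limma did not call it with TPM (adjusted p = 0.0642), median-of-ratios scaling (0.0536) or without a variance trend (0.0568). Nor did it with a pseudocount of 0.1 (0.0563) or no filter on low values (0.192). With each library omitted, the log2 fold change ran from 0.77 to 1.10. Mir155hg lies on chromosome 16 (84703167 to 84715245, plus strand), and its nearest coding gene Mrpl39, for a mitochondrial ribosomal protein 2331 bases away, had 13.4 ± 0.833 FPKM in WT and 12.5 ± 0.861 FPKM in cKO (SD, n = 2).

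Mir142hg, on chromosome 11 (87755577 to 87757270, plus strand), had 25.8 and 22.8 FPKM in WT and 41.5 and 36.2 FPKM in cKO. The groups did not overlap. Its log2 fold change was 0.66 ± 0.12 (SE; limma, adjusted p = 0.0734), and ran from 0.56 to 0.75 with each library omitted. Mir142hg was called with the GC correction and replicate block together (limma, adjusted p = 0.0473). No other setting with all 4 libraries called it (limma, adjusted p of 0.0697 to 0.206). The microRNA gene Mir142b lies on the opposite strand within Mir142hg, and no shared exonic bases were found. Mir142b went from 13 and 13 reads in WT to 52 and 49 in cKO, and was called (log2 fold change 1.76, limma, adjusted p = 0.0108). Without a known strand setting those reads may belong to either transcript. Mir17hg, on chromosome 14 (115042879 to 115046727, plus strand), had 8.86 and 7.67 FPKM in WT and 10.0 and 10.5 FPKM in cKO. The groups did not overlap, and the difference was small next to that of the other 2 hosts (0.28 ± 0.10, SE; limma, adjusted p = 0.221). In each case the host total, and not the mature microRNA printed above, was measured. Among 11 tested genes of microRNA processing none was called, 2 lay above and 7 below WT in both cKO libraries (27.2% and 28.7% of all tested genes), and the median log2 fold change was -0.17. The lowest adjusted p among them was that of Ago1, an Argonaute protein (log2 fold change -0.29, limma, adjusted p = 0.165).

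Of the RNAs of nuclear bodies and chromatin, 14 were listed and 3 were members. Neat1 had 1.12 and 1.28 FPKM in WT and 2.86 and 2.59 FPKM in cKO, from 454, 507, 1208 and 1044 reads. Both cKO libraries were more than double both WT libraries, with a ratio of means of 2.28. Its log2 fold change was 0.76 ± 0.11 (SE; limma, adjusted p = 0.0554), on a scale that understates the change of so low a value. The table counts Neat1 (chromosome 19, 5824708 to 5845478, minus strand) over 20771 bases, the length of its long form, so the short and the long form cannot be told apart and reads from the short form alone are diluted in FPKM. Malat1, its neighbour on chromosome 19, had 11.2 and 7.82 FPKM in WT and 10.3 and 9.9 FPKM in cKO. The cKO values lay between the WT values (0.09 ± 0.17, SE; limma, adjusted p = 0.771). Lockd, transcribed downstream of the cell cycle inhibitor gene Cdkn1b, had 1.17 and 1.24 FPKM in WT and 2.87 and 1.92 FPKM in cKO. The cKO libraries were higher but unequal (0.61 ± 0.17, SE; limma, adjusted p = 0.14), while Cdkn1b had 10.8 ± 0.408 FPKM in WT and 10.1 ± 1.23 FPKM in cKO (SD, n = 2).

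None of 15 tested paraspeckle and speckle protein genes was called. In both cKO libraries 6 of them lay above and 1 below WT (27.2% and 28.7% of all tested genes). The core paraspeckle gene Sfpq had 132 and 137 FPKM in WT and 142 and 152 FPKM in cKO, and Nono had 81.0 and 86.1 FPKM in WT and 83.3 and 78.9 FPKM in cKO. Of the X inactivation centre RNAs none was a member. Xist was listed at 0 in 3 libraries and at 0.0029 FPKM in WT replicate 2, and the Y-linked member Gm29650 had 1.20 to 1.60 FPKM in all 4. Among 7 tested genes of Xist silencing proteins none was called. In both cKO libraries 0 of these lay above and 4 below WT (27.2% and 28.7% of all tested genes). The lowest adjusted p among them was that of Lbr, the lamin B receptor (log2 fold change -0.44, limma, adjusted p = 0.0978).

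Of 22 listed snoRNA and small RNA hosts, 5 were members, since others such as Gas5 carry another biotype in the table. None was called, 2 lay above WT in both cKO libraries and none below (27.2% and 28.7% of all tested genes). Snhg6 had 31.0 and 31.1 FPKM in WT and 43.8 and 33.0 FPKM in cKO. Snhg12 had 19.1 and 20.1 FPKM in WT and 28.5 and 20.99 FPKM in cKO. In both, cKO replicate 1 was high and cKO replicate 2 lay only slightly above WT (limma, adjusted p = 0.361 and 0.35). Epb41l4aos, with 46.7 and 43.6 FPKM in WT and 61.6 and 46.3 FPKM in cKO, and Dancr, with 3.27 and 2.92 FPKM in WT and 4.45 and 2.92 FPKM in cKO, were likewise highest in cKO replicate 1, but their groups overlapped. The level in cKO replicate 2 fell within the WT range for Epb41l4aos and next to the lower WT value for Dancr. Snhg20 had 6.70 and 6.26 FPKM in WT and 6.04 and 6.62 FPKM in cKO, with overlapping groups. The ratio of cKO replicate 1 to cKO replicate 2 ran from 0.913 for Snhg20 to 1.52 for Dancr. The hosts with another biotype varied, and those named here are examples. Snhg8 had 26.3 and 27.5 FPKM in WT and 47.0 and 27.7 FPKM in cKO, again high in cKO replicate 1. Snhg1 had 32.5 and 34.4 FPKM in WT and 34.2 and 36.0 FPKM in cKO. Snhg5 had 34.4 and 39.1 FPKM in WT and 36.5 and 31.5 FPKM in cKO, and Gas5 had 48.1 and 45.1 FPKM in WT and 60.6 and 52.1 FPKM in cKO. None of 8 tested snoRNP core protein genes was called, the lowest adjusted p being that of the rRNA methyltransferase gene Fbl (log2 fold change -0.18, limma, adjusted p = 0.379). None of 18 tested genes of nonsense-mediated decay and the nuclear exosome, which degrade many such spliced hosts and short-lived noncoding transcripts, was called either; 2 lay above and 7 below WT in both cKO libraries (27.2% and 28.7% of all tested genes).

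By mean FPKM over the 4 libraries the second member was 2900097C17Rik, the mouse Norad transcript, a cytoplasmic RNA that binds Pumilio proteins. It had 48.4 and 46.9 FPKM in WT and 63.3 and 49.5 FPKM in cKO. Again cKO replicate 1 was high and cKO replicate 2 was just above WT (0.23 ± 0.14, SE; limma, adjusted p = 0.417). Pvt1, the neighbour of Myc, had 1.15 and 1.06 FPKM in WT and 1.16 and 1.16 FPKM in cKO, a difference smaller than its error (0.04 ± 0.12, SE; limma, adjusted p = 0.873). Myc itself had 281 ± 29.1 FPKM in WT and 308 ± 71.0 FPKM in cKO (SD, n = 2). Of 27 listed T cell and immune RNAs, 3 were members, namely Mir142hg, Mir155hg and Gm5547, and Gm5547 had 2.95 and 3.48 FPKM in WT and 3.46 and 2.52 FPKM in cKO, with overlapping groups.

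Gm42047 had the lowest fold change of the set. It had 22.1 and 23.0 FPKM in WT and 9.67 and 5.41 FPKM in cKO, from 2439, 2479, 1109 and 592 reads. The WT libraries were nearly equal, and the cKO libraries were both far lower but differed 1.79-fold from each other. The WT mean was 2.99 times the cKO mean, and the log2 fold change was -1.51 ± 0.24 (SE; limma, adjusted p = 0.0635). Gm42047 lies on chromosome 8 (121833247 to 121841178, plus strand), within the body of Gm20388, and no shared exonic bases were found. Gm20388 is a coding gene model on the same strand that was listed at 0. The longest transcript of Gm42047 holds an open reading frame of 393 codons, so the noncoding annotation of Gm42047 is uncertain.

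Gm26917, the member with the highest mean FPKM over the 4 libraries, had 62.0 and 62.9 FPKM in WT and 31.9 and 55.5 FPKM in cKO. Both cKO libraries were lower, so that in cKO its mean of 43.7 FPKM lay below those of 2900097C17Rik (56.4 FPKM) and Epb41l4aos (53.9 FPKM), and cKO replicate 1 was far below cKO replicate 2 (-0.56 ± 0.26, SE; limma, adjusted p = 0.31). Its GC content was 69.1%. It lies on chromosome 17 (39843013 to 39846341, plus strand), where the mouse build also holds a copy of the ribosomal RNA precursor, so its reads cannot be told apart from ribosomal RNA left in the libraries. 2010320M18Rik, which starts 102 bases from Pik3r2 on the other strand, had 3.19 and 4.20 FPKM in WT and 2.34 and 2.35 FPKM in cKO. The groups did not overlap (-0.48 ± 0.13, SE; limma, adjusted p = 0.147), and Pik3r2, a regulatory subunit gene of PI3 kinase, had 7.06 ± 1.01 FPKM in WT and 4.73 ± 1.17 FPKM in cKO (SD, n = 2). The other members among the 6 lowest fold changes with a mean of at least 2 FPKM were Gm13834, Gm8066 and Gm17586, whose groups overlapped and whose log2 fold changes were -0.22, -0.15 and -0.10.

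Among the highest fold changes with a mean of at least 2 FPKM, 2 members were driven mostly by one library. Gm42921 had 2.34 and 3.76 FPKM in WT and 9.84 and 4.57 FPKM in cKO. Gm37083 had 1.51 and 1.77 FPKM in WT and 4.43 and 2.54 FPKM in cKO. In both, cKO replicate 1 was far above cKO replicate 2, which was nearer to WT (limma, adjusted p = 0.226 and 0.165). Gm28901, which shares 406 exonic bases with the pseudogene Gm6430 on the other strand, differed from them in that its replicates were close, with 12.5 and 12.8 FPKM in WT and 17.4 and 18.3 FPKM in cKO. Its groups were clearly apart for a small difference (0.47 ± 0.09, SE; limma, adjusted p = 0.0763). AI504432, beside the potassium channel gene Kcna3, had 13.0 and 12.5 FPKM in WT and 18.2 and 14.6 FPKM in cKO (limma, adjusted p = 0.237).

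The other 74 members had means of 1.01 to 14.3 FPKM and log2 fold changes of -0.44 to 0.82, with a median of 0.13. Both cKO libraries lay above WT in 35 of them and below in 8, and the groups overlapped in 31 (27.2%, 28.7% and 44.1% of all tested genes). Their lowest adjusted p was that of Gm19585, with 9.39 and 9.21 FPKM in WT and 14.3 and 14.4 FPKM in cKO (0.57 ± 0.08, SE; limma, adjusted p = 0.0551). In this gene the replicates of each genotype were nearly equal and the genotypes were clearly apart. Gm19585 and AW112010 were named after their values were seen. AW112010, an RNA induced in immune cells by inflammatory signals, had 11.4 and 12.6 FPKM in WT and 11.9 and 12.8 FPKM in cKO, with overlapping groups (0.03 ± 0.10, SE; limma, adjusted p = 0.858).

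A second method gave more calls. limma's voom, run on recovered read numbers and weighting each value by its depth, called 6 lincRNAs higher and 1 lower, against 2.71% and 2.43% of all tested genes. The 6 were Gm5907, AC170597.2, Mir155hg, Neat1, Gm17322 and 1110002J07Rik, and the 1 was Gm42047. The voom adjusted p was 0.0059 for Neat1, 0.0157 for Mir155hg and 0.0157 for Gm42047. Gm17322 and 1110002J07Rik were named after their values were seen. Gm17322 had 0.565 and 1.01 FPKM in WT and 2.07 and 2.21 FPKM in cKO, and shares 145 exonic bases with Cyp11a1, a steroid synthesis gene whose own values were 3.40 and 2.44 FPKM in WT and 5.88 and 4.58 FPKM in cKO. 1110002J07Rik had 0.712 and 0.687 FPKM in WT and 2.23 and 1.76 FPKM in cKO. In both genes the cKO libraries lay above the WT libraries. These 2 genes and AC170597.2, 3 of the 6 called higher by voom, had WT means under 1 FPKM and entered the set through their cKO values.

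The number of calls also depended on one library. Without cKO replicate 2, limma called 21 members higher and 3 lower, and 13.2% and 15.3% of all tested genes, with the lone cKO library assumed to vary like the WT libraries. Transcript GC content moved with the difference between the cKO libraries: over the 99 members with a known sequence, the difference of cKO replicate 1 from cKO replicate 2 had a Spearman rho of -0.32 with GC, and over all tested genes -0.53. Between the WT libraries the same rho was 0.03 among members and 0.12 over all tested genes. The members' log2 fold change of cKO minus WT had a rho of -0.05 with GC, and that of all tested genes -0.25. These are descriptions across genes, which share libraries and are not independent. After a GC correction limma called 7 members higher and 1 lower, against 2.58% and 2.3% of all tested genes. The calls then included Mir155hg (0.86, adjusted p = 0.039), Neat1 (0.75, adjusted p = 0.0313) and, as the lower gene, Gm42047 (-1.49, adjusted p = 0.0453). Gm26917 was not among them (-0.31, limma, adjusted p = 0.15).

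**Figure D4:**
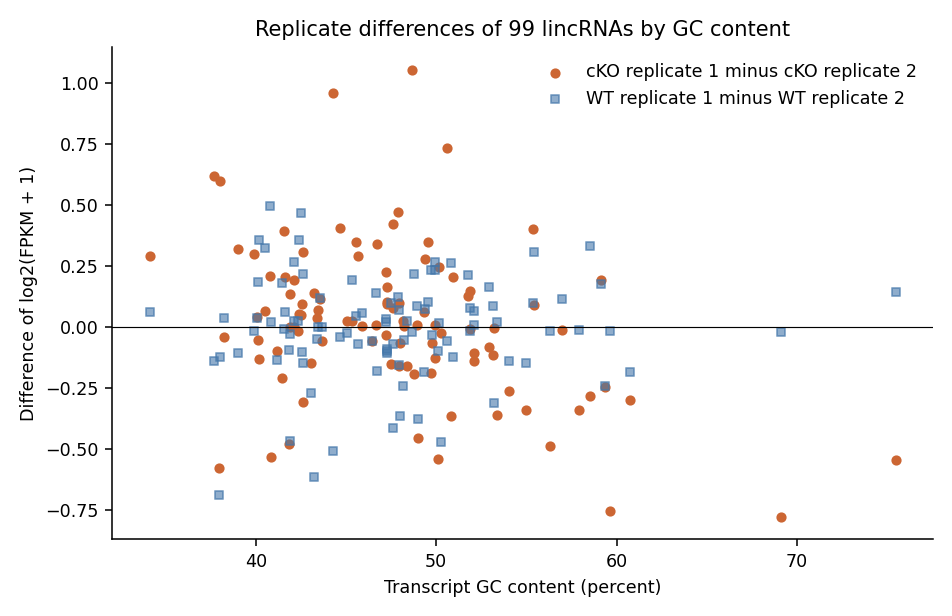
Difference of log2(FPKM + 1) between the replicates of each genotype (y axis) against transcript GC content in percent (x axis) for 99 lincRNAs. The cKO difference declines with GC content (rho -0.32) and the WT difference does not (rho 0.03), and the cKO point at 69.1% GC is Gm26917.

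The nearest coding gene was tested for 72 of the 100 members, and 41 of these 72 pairs (56.9%) had fold changes of the same sign. Across the pairs Pearson's r was 0.34 and Spearman's rho 0.14, given as a description since pairs share libraries and some share reads. The 72 pairs hold 69 different neighbours, since 3 genes are nearest to 2 members each. Of these 69, 1 rose and none fell (0.814% and 0.256% of all tested genes), and that 1 was Gimap5, a GTPase of lymphocyte survival, with 15.1 and 15.7 FPKM in WT and 27.0 and 24.9 FPKM in cKO (0.72 ± 0.09, SE; limma, adjusted p = 0.0492). It lies beside Gm44226, which itself had 1.63 and 1.31 FPKM in WT and 1.36 and 1.73 FPKM in cKO, with overlapping groups. Sec14l1, the neighbour of Snhg20, was lower in both cKO libraries (20.2 and 19.1 FPKM in WT, 10.9 and 13.0 FPKM in cKO) while Snhg20 was level. A coding gene that starts within 2000 bases on the other strand was present for 17 members.

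**Figure D5:**
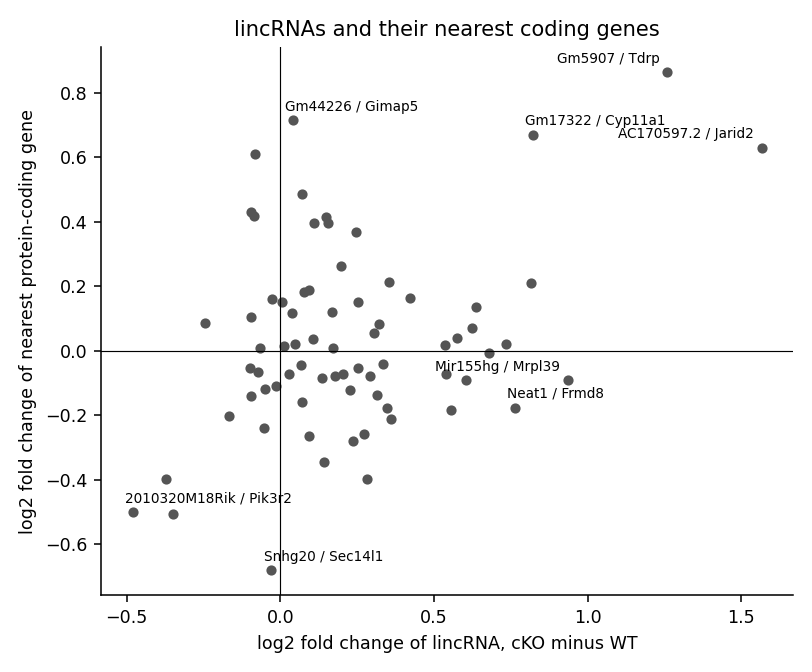
Log2 fold change of cKO minus WT of the nearest tested protein-coding gene (y axis) against that of the lincRNA (x axis) for 72 pairs. Gm5907 with Tdrp and AC170597.2 with Jarid2 lie high on both axes, whereas the neighbours of Mir155hg and Neat1 stay slightly below 0.

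RefSeq promoters (GRCm38.p6, 250 bases before to 50 after the start) were matched by symbol or gene ID for 48 members, and for 40 of them the RefSeq start lies within 500 bases of the member's start in the table. Gm5907 and AC170597.2, the called members, had no match, so their promoters were not searched. Neat1, Mir142hg and Gm42047 had none either. The match of Mir155hg starts 9856 bases from its start in the table and was left out. Matches are counted in these 40 members and set beside the share of all 32851 promoters. For AP-1, the Fos and Jun factors that PMA activates, the pattern TGANTCA was searched. It allows any base in the middle and so is looser than their consensus site. This pattern was found on either strand in 3 (7.5% against 7.81%). The CRE motif TGACGTCA was found in 3 (7.5% against 1.79%), the E-box CACGTG in 1 (2.5% against 7.15%) and TATAAA in 1 (2.5% against 13.6%). The p53 half-site was found in 3 (7.5% against 8.36%) and the interferon response element in 0 (against 3.44%). A match describes letters in a window and not a bound site.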

How the data were processed

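RNA sequencing of 2 PP2A WT and 2 PP2A cKO libraries was analysed from the authors' deposited table of FPKM per gene for 52636 genes, together with its columns of gene length in bases, biotype, position and strand. Per the submitters' processing notes, featureCounts 1.5.0-p3 was used with GRCm38 (mm10). For the aligner, annotation release, strand setting and FPKM tool, the step is not given in the sources used here. FPKM times length gave the depths. It was a whole number of reads, within 0.01 read, for 100% of values checked, which left out the genes with most reads. The summed reads were 19347055 and 18517487 in WT, under the 19567961 and 19105296 that the FPKM scaling implies. In cKO they were 20387948 and 19521977, over the implied 20317062 and 19393050. The test was limma 3.58.1 (R 4.3.3) on log2(FPKM + 1) with a variance trend, no block, two-sided. It was adjusted at 0.05 over the 10562 genes averaging 1 FPKM or more. The test was also run on simulated reads with the same spread in all libraries and no GC effect. These libraries do not share those properties, so that run does not show how the test behaves on them. With 2 against 2, an exact permutation p cannot go under 0.333. GC content came from GENCODE M21, which held 99 members. Alternatives were other pseudocounts, filters, scalings, a replicate block, a GC correction, voom and the omission of each library. Named were all called members, the 10 highest means, the 6 highest and 6 lowest fold changes averaging 2 FPKM or more, and members of role lists. Members and lists were chosen with earlier results of these data known. The values of 1 listed gene are not reported here.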

Additional observations from a re-analysis of the deposited data

How the results depend on the processing

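The median log2 fold change of the lincRNAs stayed above 0 under every alternative run (0.12 to 0.24), and the counts of calls did not stay. Against 2 members higher and 0 lower, there were 7 and 1 with a GC correction, 5 and 1 with the GC correction and replicate block, 6 and 1 with voom, and 1 higher with TPM, with a pseudocount of 0.1, with a filter of 5 FPKM, and among members with both genotype means at 1 FPKM or more (chosen after seeing the data). Without a filter on low values limma called 0 members and 0 genes (3012 genes at an unadjusted p under 0.05). Omitting each library gave 2 to 21 members higher and 0 to 3 lower. All genes called numbered 113, and 516 with the GC correction, 308 with the GC correction and replicate block, 75 with TPM, 543 with voom and 55 to 3004 with each library omitted. The share of calls that were higher was 76.1%, but 52.9% with the GC correction and 52.7% with voom. With a replicate block there were 3 members higher, 1 lower and 227 genes called. The deviations of same-numbered libraries had r = -0.09 across genes. The labels do not say whether such libraries were paired. This r cannot decide it, since it is taken across genes and not across pairs.

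AC170597.2 missed the threshold with a pseudocount of 0.1 (limma, adjusted p = 0.054), TPM (0.0575) and no filter (0.176), and Gm5907 with no filter (0.168). Signs turned for small values. Snhg20 was 0.015 and Gm8066 0.15 with the GC correction, with or without the block, and Pvt1 was -0.018 with TPM. With each library omitted, Malat1 ran from -0.14 to 0.33, Snhg20 from -0.086 to 0.027, Dancr from -0.061 to 0.41, Gm5547 from -0.26 to 0.084, Gm8066 from -0.43 to 0.12, Gm13834 from -0.46 to 0.028 and Gm17586 from -0.37 to 0.18. The causes were not tested. Depth limits the 38 members under 50 mean reads.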
